A study of Mus musculus with 58 samples.

Results

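The Rab genes of the mouse were followed in 2 cortical regions, the EC (entorhinal) and the PVC (primary visual). Members were all genes whose listed symbol began with Rab and a digit in the tables of both regions, which gave 67 of 31246 genes. Of these, 58 encoded Rab GTPases or carried such a name, and 9 carried a Rab number because they were named as a regulator, partner or effector of that Rab. The RNA-sequencing study used aged male C57Bl/6 mice that carry human APOE in place of the mouse gene under the endogenous murine promoter, which all groups share. In each region there were 10 libraries from APOE3/3 mice and 19 from APOE3/4 mice, all 14 to 15 months old, and the same 29 animal numbers occurred in both regions. The paper states that the mice of the whole study, which also included mice for immunohistochemistry, came from 2 colonies. It does not say which colony the sequenced mice came from. The libraries were of bulk tissue, in which fewer cells of a type and less RNA per cell cannot be told apart.

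Rab proteins are small GTPases that act as molecular switches on membranes. In the GTP-bound form a Rab sits on 1 kind of vesicle or organelle and recruits effectors that bud, move, tether or fuse it, and in the GDP-bound form it is extracted into the cytosol by a GDP dissociation inhibitor. Guanine nucleotide exchange factors (GEFs) switch Rabs on, and GTPase-activating proteins (GAPs) switch them off. In neurons, Rab5 and Rab7 are known for the early and late endosome, Rab11 for recycling, and Rab3 and Rab27 for synaptic and secretory vesicles.

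The values were the mean normalized count of each gene in each region, the authors' mean over all 29 libraries of both genotypes. They carried no error, single mice were not analysed here, and no genotype comparison was made. The regions were normalized separately, and the summed mean normalized count was 49385488 in the EC against 27058393 in the PVC, which are sums after scaling and no measure of library depth. Levels were compared between genes as the mean normalized count per kilobase of merged exons, scaled to sum to 1000000 over all genes with an annotated length, and are called the level per length, in units of that scale. Levels between regions were compared as the EC over PVC ratio, divided by its median of 1.86 over the 15642 genes whose mean normalized count was 10 or more in both regions. A member was taken as past the fold when this centred ratio was at least 1.5 times above or below 1. With 1 pooled value per region there was no replicate check and no test of any ratio.

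Of the 67 members, 61 reached the floor of 10 in both regions and 6 did not. The marker genes of the labelled tissue were present in both regions. Neuronal markers had a summed level per length of 4333 units in the EC against 4792 in the PVC, and none of the 5 listed of 6 was past the fold. The centred log2 ratios of the 5 ran from -0.55 for Snap25 to 0.14 for Slc17a7, with a median of -0.24. The 3 oligodendrocyte markers reported (Mbp, Mog and Mobp) were lower in the EC, with centred log2 ratios of -1.63 to -1.37 and a summed level per length of 257 units in the EC against 665 in the PVC. Past the fold were also 1 of 2 markers of cortical layer 4 (Rorb, lower in the EC at -1.22), 1 of 3 of the choroid plexus (Ttr, lower at -2.18), 1 of 2 of the dentate gyrus and hippocampus above the floor (C1ql2, higher at 1.79) and 1 of 4 of astrocytes (Gfap, higher at 0.62). The microglial and endothelial markers lay between -0.01 and 0.15, and no marker reported was at 0 in either region. The part of this cellular make-up in the Rab ratios below was not tested.

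The Rab GTPases were expressed well above a typical gene. The median level per length of the 54 GTPases above the floor in the EC was 56.8 units, against 20.04 for all genes above the floor there, and 40 of the 54 lay above the median of those genes. In the PVC the corresponding medians were 63.5 and 22.7 units. The summed level of the 58 GTPases was 6945 units in the EC against 6711 in the PVC.

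A few members carried most of this RNA. The 7 highest GTPases held over 50% of the summed level in each region, and the 5 highest held 42.5% in the EC against 44.7% in the PVC. In the EC these 7 were Rab6b, Rab3a, Rab6, Rab2a, Rab3c, Rab7 and Rab11b, and in the PVC Rab1b took the place of Rab3c. With the longest transcript as length, Rab15 took the place of Rab11b in the EC and of Rab1b in the PVC. Rab6b, the neuron-enriched form of the Golgi Rab6, was highest, with a level per length of 876 units in the EC against 850 in the PVC. Rab3a, the main Rab of synaptic vesicles, followed with 821 and 816 units. The lowest was Rab44, at 0.036 units in the EC against 0.033 in the PVC. The order of the 67 members by level was close to the same in the regions, with a Spearman correlation of 0.994 across genes, which are not independent and share the same exon lengths.

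**Figure D1:**
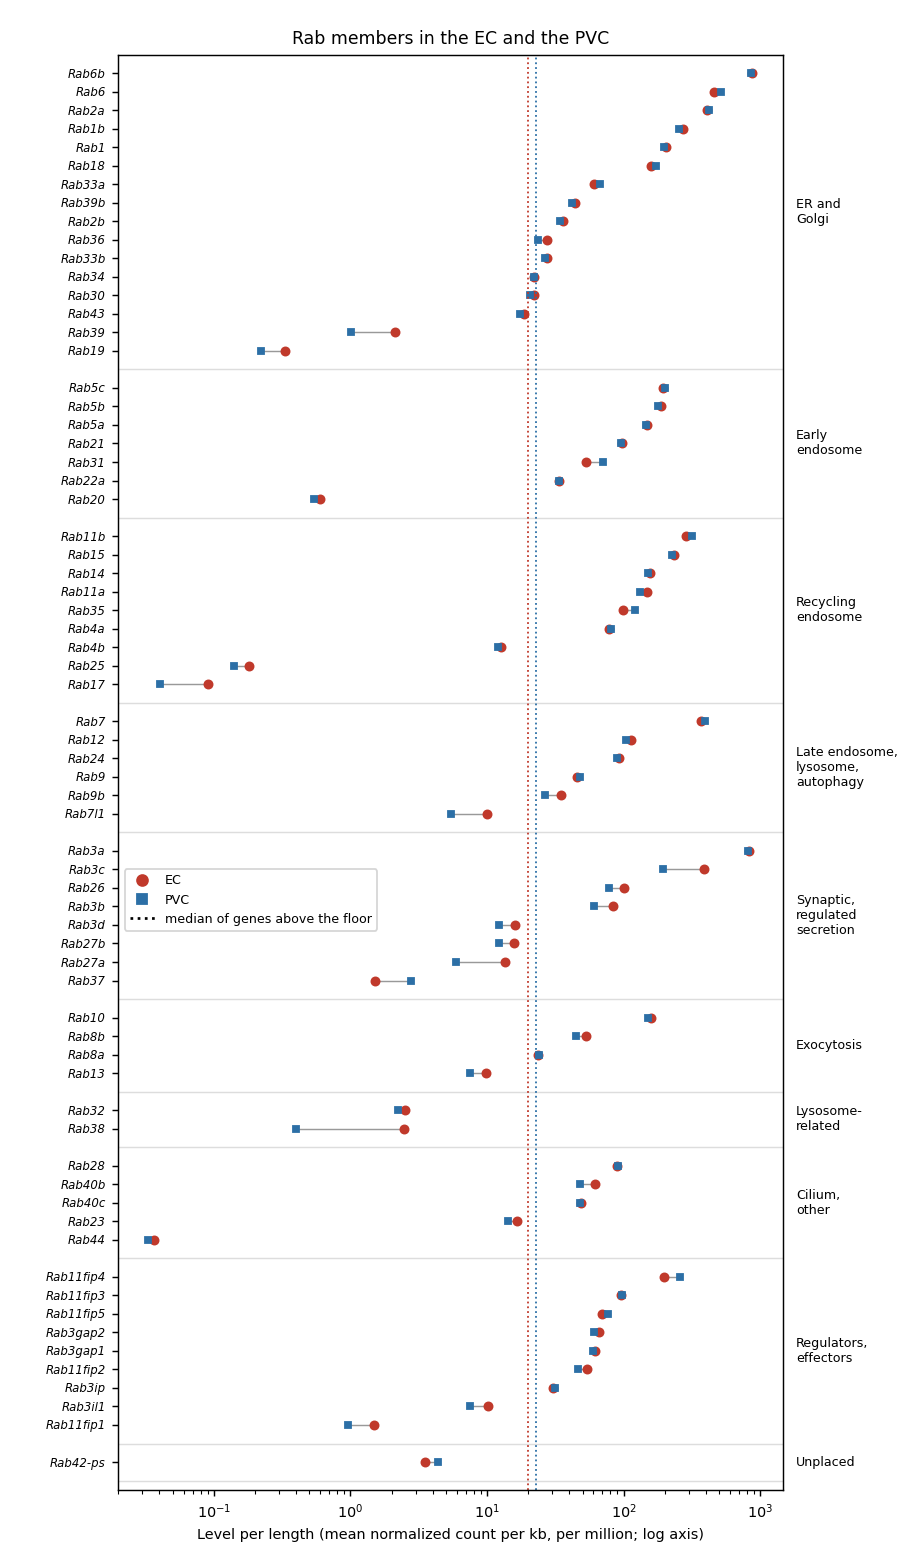
Level per length of each Rab member in the EC (red circles) and the PVC (blue squares), on a log axis in mean normalized count per kilobase scaled to sum to 1000000, grouped by compartment. Dotted lines mark the median of all genes above the floor, 20.04 units in the EC against 22.7 in the PVC, and most members lie to the right of them, from Rab6b at 876 units in the EC down to Rab44 at 0.036.

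Members of the endoplasmic reticulum and Golgi held the largest share of the summed GTPase level, 38.02% in the EC against 39.7% in the PVC. Of 16 members, 15 were above the floor, and their median centred log2 ratio was 0.02. Below Rab6b came Rab6 at a level per length of 459 units in the EC against 518 in the PVC, and Rab2a, which acts between the endoplasmic reticulum and the Golgi, at 409 and 420. Rab1b and Rab1, which act in transport from the endoplasmic reticulum to the Golgi, stood at 272 and 205 units in the EC against 253 and 197 in the PVC. Rab19 was lowest and under the floor, with a mean normalized count of 6.91 in the EC against 2.57 in the PVC. Rab39, 1 of the 15, was past the fold, where 6.78% of all genes above the floor were higher and 5.38% lower. It is described with the others of that kind. The other 14 had centred log2 ratios from -0.21 for Rab6 to 0.18 for Rab36.

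The early endosome was represented by 3 Rab5 forms at like levels. Rab5 controls the fusion of incoming endocytic vesicles with the early endosome. Rab5c, Rab5b and Rab5a had levels per length of 195, 187 and 149 units in the EC against 202, 178 and 145 in the PVC. Their centred log2 ratios were -0.09, 0.04 and 0.01. The 7 members of the compartment held 10.3% of the GTPase sum in the EC against 10.8% in the PVC. None of the 6 above the floor was past the fold, where 6.78% of all genes above the floor were higher and 5.38% lower. Rab31 came closest, with a mean normalized count of 2692 in the EC against 1984 in the PVC and a centred ratio 1.37 times higher in the PVC. Rab20 was lowest, with a mean normalized count of 11.5 in the EC against 5.73 in the PVC.

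Recycling members held 14.6% of the GTPase sum in the EC against 15.5% in the PVC. Rab11b was highest, with a level per length of 284 units in the EC against 316 in the PVC, and its paralog Rab11a, of the same slow recycling route, stood at 148 and 132. Rab4a, of the fast recycling route, had 78.6 units in the EC against 80.9 in the PVC. None of the 7 members above the floor was past the fold, where 6.78% of all genes above the floor were higher and 5.38% lower. The median centred log2 ratio of the 7 was 0.00. The most negative was Rab35, which acts in recycling and in exosome release, at -0.32. Rab17 and Rab25, known from epithelial cells, were under the floor in both regions, with mean normalized counts of 2.40 and 4.03 in the EC against 0.594 and 1.73 in the PVC.

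Late endosomal, lysosomal and autophagic members held 9.61% of the GTPase sum in the EC against 9.95% in the PVC. Rab7, which drives maturation of late endosomes and their fusion with lysosomes, made up most of this, with a level per length of 371 units in the EC against 395 in the PVC. Its centred log2 ratio was -0.13. Rab9 and Rab9b, of the route from late endosomes back to the Golgi, had 45.4 and 34.9 units in the EC against 47.7 and 26.8 in the PVC, with centred log2 ratios of -0.11 and 0.34. Rab12 and Rab24 lay at 0.09 and 0.00. Rab7l1, listed in RefSeq as Rab29, was the lowest of the compartment. It was the 1 of 6 members past the fold, where 6.78% of all genes above the floor were higher and 5.38% lower.

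Synaptic and regulated secretion was the compartment that departed most from 0 in its median among those with several members above the floor. Its 8 members had a median centred log2 ratio of 0.34, against 0.02 for all 61 members, and held 20.7% of the GTPase sum in the EC against 17.6% in the PVC. Most of this difference in share lay in Rab3c, which held 5.54% in the EC against 2.89% in the PVC. Rab3a, the largest of the list, held 11.8% against 12.2%. Of the 8, 2 were higher in the EC (Rab3c and Rab27a), 1 was lower (Rab37) and 5 were within the fold, where 6.78% of all genes above the floor were higher and 5.38% lower. Counts this small are read no further. Among those 5, Rab3b, Rab3d, Rab27b and Rab26 lay between 0.32 and 0.44, and Rab3a lay at -0.03. Rab37 was also the lowest in level, at 1.51 units in the EC against 2.80 in the PVC. The list is small, and no test compared it with the others.

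The remaining compartments had lower summed levels. Exocytosis to the plasma membrane held 3.55% of the GTPase sum in the EC against 3.37% in the PVC, from Rab10 at 159 units in the EC to Rab13 at 9.83. None of its 4 members was past the fold, where 6.78% of all genes above the floor were higher and 5.38% lower. Rab8b and Rab8a, which deliver vesicles to the plasma membrane and the cilium, had 53.5 and 23.8 units in the EC against 45.2 and 24.1 in the PVC. Rab32 and Rab38, known for the melanosome and other lysosome-related organelles, had 2.52 and 2.48 units in the EC against 2.24 and 0.399 in the PVC. Members of the cilium and of less settled function ran from Rab28 at 89.8 units in the EC to Rab44, whose mean normalized count was 1.98 in the EC against 1.01 in the PVC. The gene listed as Rab42-ps, which the annotation calls protein-coding and RefSeq gives as a synonym of Rab42, had 35.7 mean normalized counts in the EC against 24.7 in the PVC and a centred log2 ratio of -0.36.

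Most members had much the same level in the 2 regions once the ratios were centred, and so did most genes above the floor. Of the 61 members above the floor, 55 were within the fold. Centred log2 ratios were positive for 36 and negative for 25, with a middle range (25th to 75th percentile) of -0.08 to 0.17, against -0.14 to 0.16 for all genes above the floor. There were 5 members higher in the EC, 8.20% of the 61, where 6.78% of all genes above the floor were higher. There was 1 member lower in the EC, 1.64%, where 5.38% of all genes were lower. Both counts are small, and the share higher lay near the background.

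**Figure D2:**
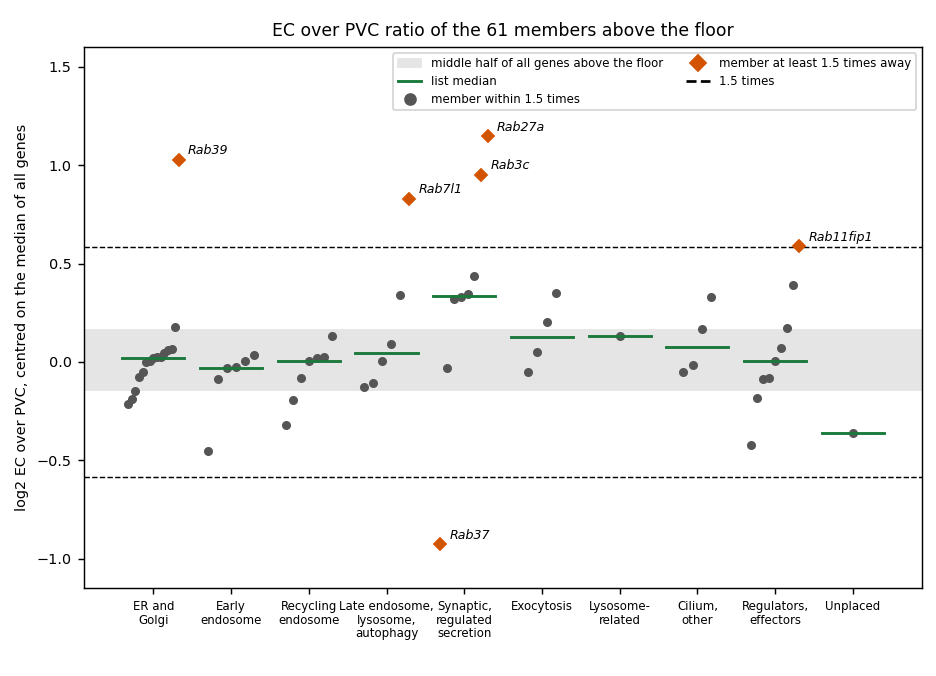
Centred log2 EC over PVC ratio of the 61 members above the floor (points), by compartment, with the list medians (green lines), the 25th to 75th percentile of all genes above the floor (grey band) and the fold of 1.5 (dashed lines). The 6 members past the fold are orange and named, with Rab27a highest at 1.15 and Rab37 lowest at -0.93, while the other 55 lie between the dashed lines.

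Rab27a, which docks secretory vesicles and exosome-bearing endosomes at the plasma membrane, differed most among the members above the floor. Its mean normalized count was 537 in the EC against 130.5 in the PVC, a centred ratio of 2.22 (log2 1.15). The gene lies at chr9:72892672-72945399 on the plus strand of NCBIM37. Its paralog Rab27b had mean normalized counts of 2246 in the EC against 963 in the PVC and a centred log2 ratio of 0.33. Rab39 (chr9:53492215-53514337, minus strand) had 83.9 in the EC against 22.1 in the PVC, a centred ratio of 2.04 (log2 1.03).

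Rab3c was the one abundant member past the fold. It is a synaptic vesicle Rab and a paralog of Rab3a, at chr13:110844395-111071109 on the minus strand. Its mean normalized count was 45641 in the EC against 12708 in the PVC, a centred ratio of 1.93 (log2 0.95). In level per length it had rank 5 among the GTPases in the EC, at 385 units, and stood at 194 units in the PVC. Rab3a had 24307 and 13362 mean normalized counts and a centred log2 ratio of -0.03. Per length, with 8913 bases of merged exons in Rab3c, it stood below Rab3a in both regions.

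Rab7l1 and Rab11fip1 were the other members higher in the EC. Rab7l1, a trans-Golgi and lysosomal Rab known as a partner of the kinase LRRK2, lies at chr1:133763801-133769464 on the plus strand and had 179 mean normalized counts in the EC against 54.2 in the PVC, a centred ratio of 1.78 (log2 0.83). Rab11fip1, a Rab11 effector at chr8:28249245-28285120 on the minus strand, had 157 and 56.2, a centred ratio of 1.5 (log2 0.59) that was just past the fold, and it lost this call with a pseudocount of 1 (log2 0.58) and with a floor of 1 (log2 0.57). The nearest member on this side that was not past the fold was Rab3b, at 1.35.

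Rab37 was the one member lower in the EC. It is a Rab of secretory granules, at chr11:114952745-115023550 on the plus strand. It had 107 mean normalized counts in the EC against 109.6 in the PVC, close to equal as deposited, where the median gene above the floor was 1.86 times higher in the EC. Its centred ratio was thus 1.90 times higher in the PVC (log2 -0.93). Without centring its log2 ratio was -0.03. The 3 oligodendrocyte markers, Rorb and Ttr moved in the same direction and further, and 2 markers (C1ql2 and Gfap) were higher by the fold. The part of any of them in this value was not tested. The nearest member on this side that was not past the fold was Rab31.

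Rab38 fell under the floor in the PVC, so the rule gave it no ratio. It lies at chr7:95578783-95639976 on the plus strand and had 48.5 mean normalized counts in the EC against 4.32 in the PVC, an uncentred ratio of 11.2. With the floor met in either region, a choice made after this value was seen, its centred log2 ratio was 2.60. In that setting 6 members were higher in the EC of 63, where 9.27% of 16981 genes were higher. Rab38 met that floor only through the EC, where it was high, so its entry adds no support. With the floor met in both regions, 6.78% of all genes were higher. Rab37 stayed the one member lower, where 5.22% of genes were lower.

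Paralogs that share a Rab number were compared by their share of the summed level of that number. The balance of the Rab3 and Rab27 forms differed more between the regions than that of the Rab5 forms. Rab3a held 62.9% of the Rab3 sum in the EC against 75.4% in the PVC, Rab3c held 29.5% and 17.9%, Rab3b held 6.41% and 5.56%, and Rab3d held 1.23% and 1.13%. Rab27a held 46.2% of the Rab27 pair in the EC against 32.7% in the PVC. The 3 Rab5 forms had near-equal parts, with Rab5c at 36.7% and 38.5%, Rab5b at 35.2% and 33.9%, and Rab5a at 28.1% and 27.7%.

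In the other pairs the leading form was the same in both regions but for Rab40. Rab6b held 65.6% of its pair in the EC against 62.1% in the PVC, and Rab11b held 65.6% and 70.5%. Rab1b held 56.9% and 56.1%, Rab8b 69.2% and 65.2%, Rab33a 68.8% and 71.5%, and Rab9 56.6% and 64.0%. Some numbers were nearly the work of 1 form: Rab2a held 92.0% and 92.5%, Rab4a 86.2% and 87.0%, and Rab39b 95.4% and 97.7%. Rab7 held 97.4% and 98.6% beside Rab7l1, but Rab7l1 was grouped with it only by its listed symbol, and RefSeq lists it as Rab29. Rab40b held 55.8% in the EC against 49.9% in the PVC.

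**Figure D3:**
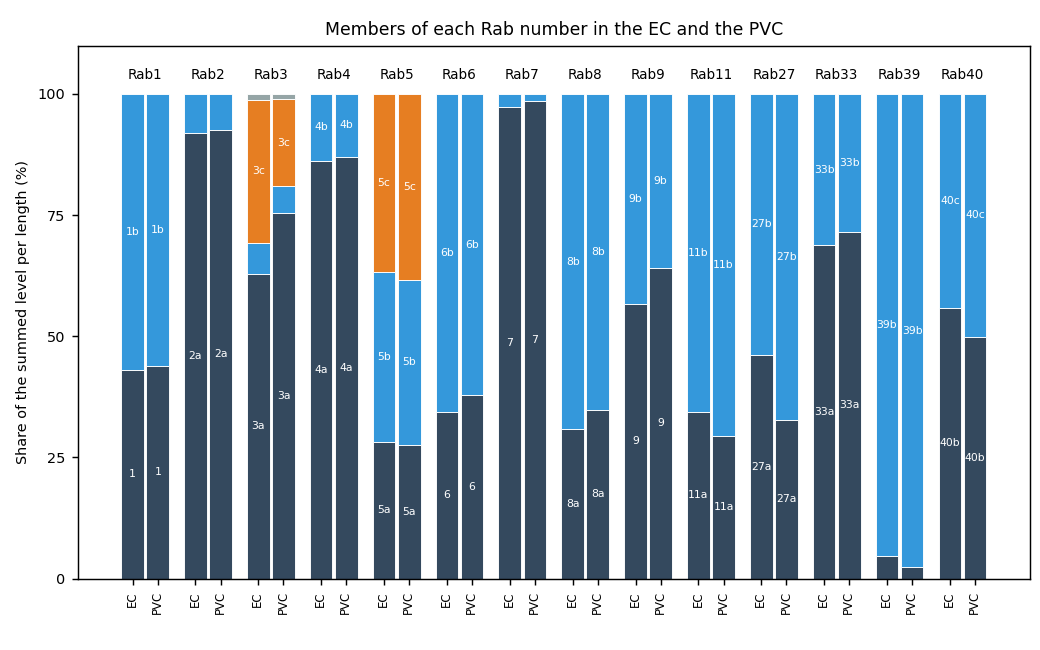
Share of the summed level per length (y axis, %) held by each form of a Rab number, in the EC and the PVC (paired bars). Shown are the 14 numbers with several GTPase members by listed symbol, with Rab7l1 (Rab29 in RefSeq) grouped under Rab7 for its symbol only. The Rab3c part (orange) of the Rab3 bars is 29.5% in the EC against 17.9% in the PVC, while the 3 Rab5 parts keep near-equal sizes.

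Reads can be assigned to 1 paralog only where the paralogs differ. The coding sequences of paralog pairs with 1 number were 67.7% to 78.5% identical over aligned bases, except for Rab7 and Rab7l1 at 58.5%. The longest run of identical bases in any of these pairs was 38 bases, in Rab1 and Rab1b, against reads of 149 bases. The stretch of 60 coding bases, within 1 exon of each gene, that is most alike over the Rab3 forms is given on NCBIM37, because the Rab3 balance rests on telling these forms apart. Capitals mark bases that differ from Rab3a, and 46 of the 60 positions are the same in all 4.
Rab3a, chr8:73279798-73279857, plus strand: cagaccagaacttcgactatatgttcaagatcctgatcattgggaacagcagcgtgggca
Rab3b, chr4:108562956-108563015, plus strand: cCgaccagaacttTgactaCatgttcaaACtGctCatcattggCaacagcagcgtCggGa
Rab3c, chr13:111050812-111050871, minus strand: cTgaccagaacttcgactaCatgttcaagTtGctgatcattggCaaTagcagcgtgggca
Rab3d, chr9:21720274-21720333, minus strand: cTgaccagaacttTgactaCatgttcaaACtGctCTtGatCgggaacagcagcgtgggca

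Rab3b and Rab3d each differ from Rab3a at 10 of these bases and Rab3c at 6, so a read that covers even this stretch holds several differences. The corresponding stretch of the Rab5 forms, whose near-equal levels rest on the same point, has 48 of 60 positions in common, with capitals where a form differs from Rab5a.
Rab5a, chr17:53639711-53639770, plus strand: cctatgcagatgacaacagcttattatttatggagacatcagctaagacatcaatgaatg
Rab5b, chr10:128118466-128118525, minus strand: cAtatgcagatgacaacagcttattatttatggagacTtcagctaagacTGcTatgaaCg
Rab5c, chr11:100578096-100578155, minus strand: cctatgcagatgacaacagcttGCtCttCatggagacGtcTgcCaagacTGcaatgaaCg

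Rab5b differs from Rab5a at 6 bases of it and Rab5c at 10. Over whole transcripts, 63 of the 67 members had no window of 149 bases that occurs exactly in an annotated transcript of another gene. The 4 that did were Rab4b, Rab11b, Rab5b and Rab3c. For Rab4b it was 44.5% of windows, shared with the overlapping gene Mia1, and for Rab11b it was 23.7%, shared with the annotated copy Rab11b-ps2. For Rab5b it was 3.48% and for Rab3c 0.308%. With windows of 50 bases, 16 members had a shared window, and in 9 of them 1% or more of windows were shared. Among these were Rab5b at 13.1% and Rab9 at 6.20%. The values of Rab4b and Rab11b are therefore uncertain, since how reads from shared windows were counted was not analysed here. Other members with shared windows may be affected too. Exons of Rab3gap2 overlapped those of a neighbouring protein-coding gene over 28.9% of their bases, and those of Rab6 over 19.0%, and the library kit marks no strand.

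The regulators and effectors that carry a Rab number were 9, all above the floor. Rab3gap1 and Rab3gap2, the catalytic and the other subunit of the GAP of Rab3, had levels per length of 61.4 and 65.6 units in the EC against 59.6 and 60.9 in the PVC, with centred log2 ratios of 0.00 and 0.07. Rab3ip, also called Rabin8, and Rab3il1 are exchange factors of Rab8, and had 30.3 and 10.1 units in the EC against 31.3 and 7.49 in the PVC, with ratios of -0.09 and 0.39. The Rab11 family interacting proteins, effectors of Rab11, spread widely. Rab11fip4 was the highest, at 198 units in the EC against 258 in the PVC, and had a log2 ratio of -0.42, while Rab11fip1 was the lowest, at 1.48 and 0.958.

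Of 47 other genes of Rab regulation, 46 were listed and 45 were above the floor. None was higher in the EC, where 6.78% of all genes above the floor were higher, and 3 (6.67%) were lower, near the 5.38% of all genes, with a median centred log2 ratio of -0.04. The 3 were Rph3a (rabphilin), an effector of Rab3 and Rab27, at -0.74, Sytl2, an effector of Rab27, at -1.56, and Tbc1d2, a GAP of Rab7, at -0.80. As deposited, without centring, Rph3a had 15129 mean normalized counts in the EC against 13589 in the PVC and Tbc1d2 had 214 and 201, so that both were then higher in the EC, while Sytl2 had 1796 and 2848. Of the marker genes, 5 were lower in the EC by the fold too (the 3 of oligodendrocytes, Rorb and Ttr) and 2 were higher. The part of any of them in these values was not tested. Rims1 and Rims2, other listed effectors above the floor, were not lower by the fold. They bind Rab3 and lay within the fold at 0.07 and -0.30. Sytl4, which binds Rab27, was under the floor in the PVC and so had no ratio. Its mean normalized count was 9.70 there against 38 in the EC. With the floor met in either region it was higher in the EC. It met that floor only through the EC, so this call shows nothing about its direction. The 7 genes that escort, prenylate or extract Rabs lay between -0.22 and 0.17, and the 13 exchange factors between -0.32 and 0.52.

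Promoters of the members were taken from RefSeq on GRCm38.p6, from 250 bases before to 50 after the first listed start, and 55 of the 67 members had one. CG dinucleotides, which mark CpG islands, were compared as observed over expected from base composition. The median of the 55 was 0.744, close to 0.743 for the 10515 genes above the floor and above 0.197 for the 5025 genes under it. The 51 members above the floor had a median of 0.754 and the 4 under it with a promoter (Rab17, Rab19, Rab20 and Rab25) of 0.380.

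**Figure D4:**
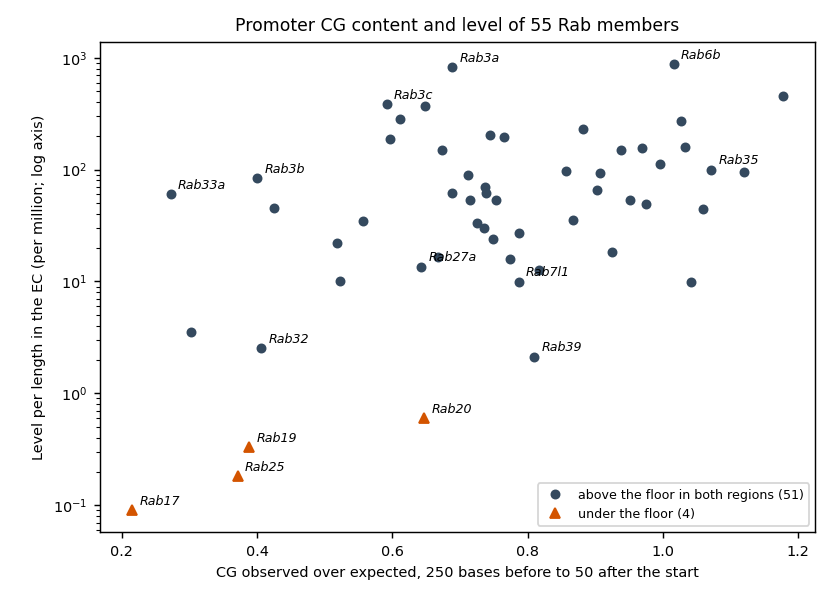
Level per length in the EC (log y axis, in units scaled to sum to 1000000) against CG observed over expected in the promoter (x axis) of the 55 members with a RefSeq promoter. Rab17, Rab19, Rab20 and Rab25 (triangles), under the floor, have a median of 0.380, and the 51 members above it (circles) one of 0.754.

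Of the 5 members higher in the EC, Rab27a, Rab39, Rab3c and Rab7l1 had a promoter in the RefSeq table. The 250 bases before each start are shown with CG in capitals to set the 4 side by side, with that of Rab25, a member under the floor, as a contrast.
Rab27a, chr9:73044560-73044809, plus strand: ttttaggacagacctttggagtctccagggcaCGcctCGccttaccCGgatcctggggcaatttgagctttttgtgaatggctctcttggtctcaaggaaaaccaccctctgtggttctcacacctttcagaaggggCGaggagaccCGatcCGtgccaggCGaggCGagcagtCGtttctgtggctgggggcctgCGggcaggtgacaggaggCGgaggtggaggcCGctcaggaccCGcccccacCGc
Rab39, chr9:53706233-53706482, minus strand: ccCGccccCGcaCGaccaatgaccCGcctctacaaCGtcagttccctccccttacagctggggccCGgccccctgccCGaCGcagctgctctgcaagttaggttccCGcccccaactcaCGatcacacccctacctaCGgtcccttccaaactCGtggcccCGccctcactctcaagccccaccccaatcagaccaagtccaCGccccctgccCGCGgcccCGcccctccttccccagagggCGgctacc
Rab3c, chr13:110280207-110280456, minus strand: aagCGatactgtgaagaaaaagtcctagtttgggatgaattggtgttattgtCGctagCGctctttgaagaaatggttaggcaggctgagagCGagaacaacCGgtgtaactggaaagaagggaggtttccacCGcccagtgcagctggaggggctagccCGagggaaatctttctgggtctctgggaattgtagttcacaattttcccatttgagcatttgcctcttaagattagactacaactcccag
Rab7l1, chr1:131867027-131867276, plus strand: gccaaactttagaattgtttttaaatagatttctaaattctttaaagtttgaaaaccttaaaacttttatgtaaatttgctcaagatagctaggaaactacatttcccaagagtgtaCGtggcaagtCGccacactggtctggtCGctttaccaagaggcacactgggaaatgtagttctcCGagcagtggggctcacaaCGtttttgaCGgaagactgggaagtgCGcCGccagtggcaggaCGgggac
Rab25, chr3:88548280-88548529, minus strand: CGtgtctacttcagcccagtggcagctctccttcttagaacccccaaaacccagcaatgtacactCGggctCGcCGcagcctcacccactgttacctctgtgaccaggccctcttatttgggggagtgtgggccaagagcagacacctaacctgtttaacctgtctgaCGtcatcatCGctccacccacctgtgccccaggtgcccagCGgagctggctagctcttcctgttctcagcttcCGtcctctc

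These stretches hold 14, 18, 7, 9 and 8 CG. Base composition ranged from 44.0% G and C in Rab7l1 to 68.8% in Rab39. Over the 300 bases and both strands, GGGCGG, the letters of the GC box, occurred in 41 of 55 members (74.5%), against 35.9% of all 27025 promoters. It occurred in 78.4% of the 51 members above the floor, against 62.7% of genes above the floor. CACGTG, the letters of an E-box, occurred in 7 members (12.7%), against 7.24% of all promoters. Its share was 11.8% of the 51 members, against 9.89% of genes above the floor. CCAAT occurred in 45.5% of the 55 members, against 37.9% of all promoters, and TATAAA in 9.09%, against 14.2%. In the 51 members above the floor CCAAT occurred in 49.0%, against 38.3% of genes above the floor, and TATAAA in 9.80%, against 7.21%. GGGCGG and CACGTG contain a CG and so move with CG content, and matches are letters in a window, not sites.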

How the data were processed

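RNA was extracted with Trizol and made into poly(A) libraries with a TruSeq kit. Per the submitters' processing notes, the authors used TopHat2 2.0.6 and Bowtie2 2.0.2.0 on mm9 (NCBIM37), HTSeq for counting and DESeq2 1.10.1, and the methods state reads of 149 bases. The authors deposited 1 table per region. Its mean normalized count, used here as a signal, is a mean made by the authors from all libraries of the region, after gene counts were divided by size factors, with each region normalized on its own. The other columns hold the authors' comparison of the genotypes (fold change, its error, statistic and p-values) and were not used, so the genotypes were not compared. Depth per library was not analysed here, and precision is unknown. Samples were grouped by the labelled region and genotype.

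From the means, levels per kilobase of merged exons (GENCODE M1 on NCBIM37, the build of the files, although the authors used a modified NCBIM37.61 annotation) and centred EC over PVC ratios were computed with Python 3.11.15, pandas 2.3.3 and NumPy 2.4.6, with a floor of 10, a fold of 1.5 and a pseudocount of 0. A gene model was found for all 67 members and for 81.2% of genes, which held 98.4% of the summed value in the EC. Paralogs were aligned with Biopython 1.88. Windows were matched exactly, and sequence shared with unannotated copies was not searched. The computation of the ratio and its calls was checked on simulated counts with no spread between mice. Such a check gives no precision of the calls on these data. Named were the highest and lowest member of each compartment in the EC, members past the fold, paralogs with 1 number and members under the floor, and of the other genes of Rab regulation those past the fold. Other names were added for their role after their values were seen. Members, compartments and lists were chosen with earlier results of these data known. Of the cell type marker genes, 1 is not reported here. Alternatives were other lengths, totals, centrings, pseudocounts, floors and folds.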

Additional observations from a re-analysis of the deposited data

How the results depend on the processing

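The counts past the fold moved with the size of the fold, the floor and centring itself, and not with how the centre was set. The members higher and lower in the EC, 5 and 1, were the same genes when centred on the ratio of sums or of upper quartiles. Without centring, 56 members (91.8%) and 41 of the other genes of Rab regulation (91.1%) were higher in the EC, against 88.3% of all genes. In that setting 0 members and 1 other gene (Sytl2, 2.22%) were lower, against 0.876% of all genes. The median log2 ratio of the members was then 0.91. With the lower fold tried, 12 members (19.7%) and 2 other genes (4.44%) were higher, against 14.4% of all genes, and 4 members (6.56%) lower, against 11.1%. At a fold of 2, 2 members (Rab27a and Rab39, 3.28%) were higher, against 2.66% of all genes, and 0 lower, and 1 other gene (2.22%) was lower, against 2.12%. With a floor of 100, 2 members (Rab27a and Rab3c, 3.64%) were higher, against 4.03% of all genes. With a floor of 1, 1 other gene (Sytl4, 2.17%) was higher, against 9.69% of all genes. The same gene was higher with the floor met in either region (added after seeing the data), against 9.27% of all genes. It met that floor only through the EC. Rab11fip1 lost its call with a pseudocount of 1 (log2 0.58) and with a floor of 1 (log2 0.57), where Rab38 entered, so that 5 members were again higher, against 9.69% of all genes.

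For values without replicates, a move of at most 1.5 times counted as unchanged. Compartment shares stayed within it with the longest transcript as length, and so did the median levels of the GTPases (all, and those above the floor) and of all genes above the floor, which also stayed within it with the total taken over genes above the floor only. With the longest transcript Rab3a was first in place of Rab6b in both regions, and Rab15 entered the 7 highest GTPases in both. No paired analysis was possible because the values used are 1 mean per region, and for the same reason no replicate could be left out. The means of Rab17, Rab19, Rab25 and Rab44 lay under 10 in both regions, and the depth behind them was not analysed here.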
